A study of Oryctolagus cuniculus with 8 samples.

Results

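Cone photoreceptors carry daylight vision through a chain of proteins that differs from that of rods gene by gene. Light isomerises the chromophore of a cone opsin, the opsin activates the transducin trimer, transducin switches on a phosphodiesterase that breaks down cyclic GMP, and the cyclic nucleotide-gated channel of the outer segment closes. Cone arrestin then quenches the opsin. In rabbits, cones with short-wavelength opsin are more frequent in the inferior (ventral) retina, as background to the values below.

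The set described here names 8 cone genes: the short-wavelength opsin OPN1SW, the transducin subunits GNAT2 (alpha) and GNGT2 (gamma), the phosphodiesterase subunits PDE6C (catalytic) and PDE6H (inhibitory), the channel subunits CNGA3 and CNGB3, and the arrestin ARR3. Members were matched to the table by symbol. Of the 8, 7 stood in the table of 25666 genes, and these 7 reached the limit for testing of 1 FPKM in at least 2 libraries. PDE6H was not analysed here, and neither was a medium- or long-wavelength opsin, since no gene of the table carried the symbols OPN1MW or OPN1LW. OPN1SW was chosen by its own FPKM values, which were higher in the sucrose libraries of this same table, so its values are a description and are given without a test. The other 6 were named for their place in the cone cascade, with earlier results of these data known.

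RNA was sequenced from 8 retinas of wild-type male Chinchilla rabbits of about 10 months of age, 2 retinas for each of 4 diets eaten for 6 months. ND was standard chow, HFD was chow with lard (10%) and cholesterol (0.5%), HSD was chow with sucrose (40%), and HFSD held the lard and cholesterol of HFD together with sucrose at 35%. The question put to this set is whether short-wavelength opsin moves by itself or with the rest of the cone cascade when the diet changes. The labels do not say that the 2 retinas of a diet came from different rabbits, so p values measure the spread between these retinas.

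Values are FPKM as deposited, that is, fragments of a gene divided by gene length and by library depth. The depths by which the libraries were divided, read back from the steps of the values, ran from 15764577 to 22785832 fragments. OPN1SW rested on 1260 to 6633 fragments a library and ARR3 on 6553 to 11106. The lowest numbers were 138 fragments for CNGA3 and 153 for CNGB3, where counting error alone comes to 8.51% and 8.08%. HSD replicate 2 stood apart from the other libraries by skeletal muscle RNA: 7 muscle genes, in 8 entries, summed to 427 FPKM there and to between 1.43 and 3.46 FPKM elsewhere. HFD replicate 2 held the lowest value of 6 of the 7 cone genes. Values without one or the other library are given beside several of the results.

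Short-wavelength opsin was the cone gene with the largest differences between diets with and without sucrose. OPN1SW stood at 69.1 and 67.6 FPKM on ND, 114 and 80.9 FPKM on HFD, 255 and 290.3 FPKM on HSD, and 276 and 209 FPKM on HFSD. The 4 retinas with sucrose lay above the 4 without, and both HFD retinas lay above both ND retinas. The diet means were 68.3±1.06 FPKM for ND, 97.6±23.6 FPKM for HFD, 273±25.1 FPKM for HSD and 243±47.9 FPKM for HFSD (s.d., n=2). HSD was thus 3.99-fold and HFSD 3.55-fold above ND, and HFSD was 2.49-fold above HFD. In log2(FPKM + 1), OPN1SW exceeded ND by 0.49 on HFD, by 1.98 on HSD and by 1.80 on HFSD, each with a standard error of 0.198 from the model of all 8 libraries. Without HSD replicate 2 the difference in HSD was 1.88. In whole retina, more cones with this opsin and more opsin RNA in each cone cannot be told apart.

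**Figure D1:**
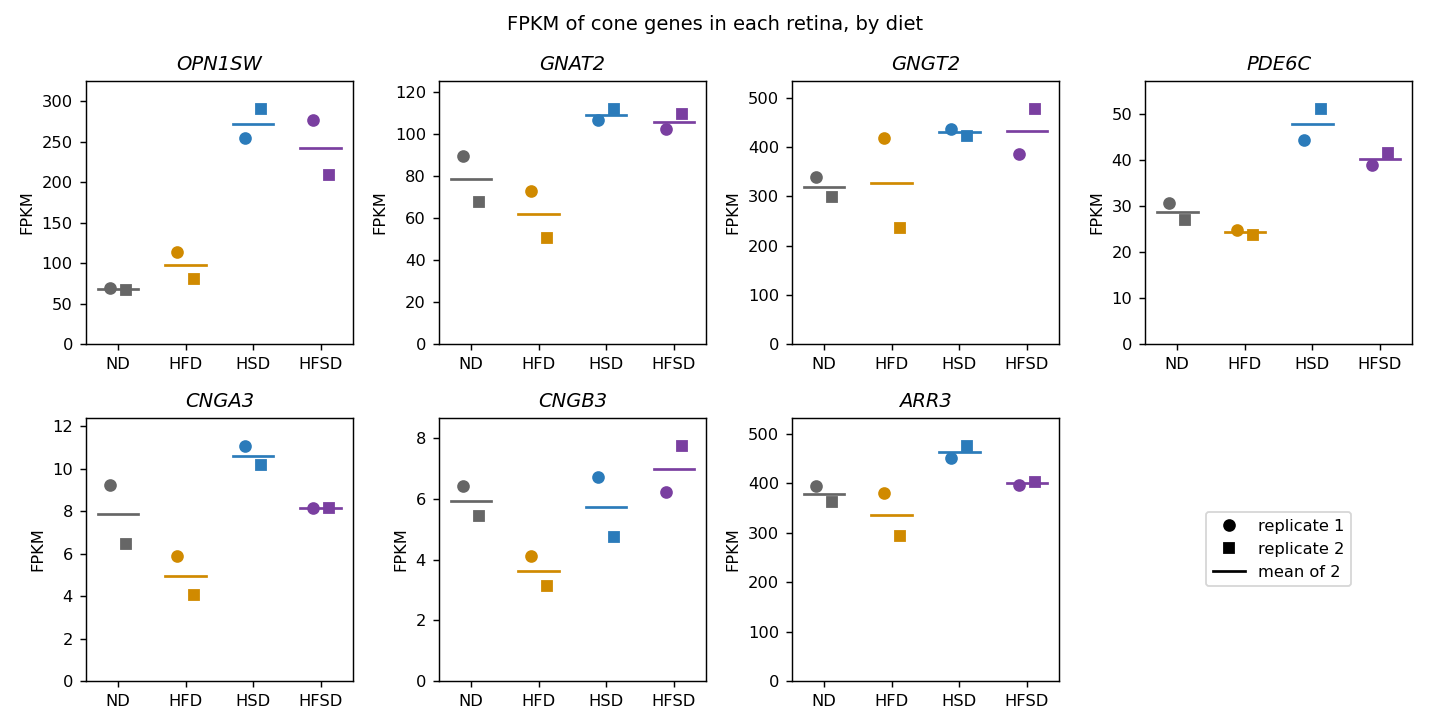
FPKM of the 7 cone genes in each retina, by diet, with a circle for replicate 1, a square for replicate 2 and a line at the mean of 2; each axis starts at 0. OPN1SW lies between 67.6 and 114 FPKM in the 4 retinas without sucrose and between 209 and 290.3 FPKM in the 4 with sucrose, while the other genes differ less.

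The transducin subunits had positive differences with sucrose that were smaller and did not pass the test. GNAT2, the alpha subunit that carries the signal from opsin to the phosphodiesterase, was at 89.3 and 67.9 FPKM on ND, 73.0 and 50.5 FPKM on HFD, 107 and 112 FPKM on HSD, and 102 and 109 FPKM on HFSD. Again the 4 retinas with sucrose lay above the 4 without. The difference between the averages of the sucrose diets and of the other diets was 0.64 in log2 (standard error 0.139, 95% interval 0.31 to 0.96, adjusted p=0.105 by limma, Benjamini-Hochberg over 12204 genes), so GNAT2 did not pass the test, and it was 0.51 without HFD replicate 2. GNGT2, the gamma subunit, was at 339 and 298 FPKM on ND, 417 and 235 FPKM on HFD, 437 and 423 FPKM on HSD, and 387 and 476 FPKM on HFSD. The HFD retinas were far apart, and HFD replicate 1 lay within the range of the sucrose retinas. The difference with sucrose was 0.44 (standard error 0.183, adjusted p=0.260), and 0.24 without HFD replicate 2.

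PDE6C, the catalytic subunit of the cone phosphodiesterase, was the gene of the 6 that passed the test. It stood at 30.5 and 26.8 FPKM on ND, 24.8 and 23.6 FPKM on HFD, 44.4 and 50.9 FPKM on HSD, and 38.7 and 41.5 FPKM on HFSD. The lowest retina with sucrose (38.7 FPKM) lay above the highest without (30.5 FPKM). With sucrose PDE6C rose by 0.71 in log2 (standard error 0.0848, 95% interval 0.51 to 0.91, adjusted p=0.0311 by limma, Benjamini-Hochberg), or 1.66-fold by mean FPKM. The difference was nearly equal in HSD against ND and in HFSD against HFD, 0.71 in each, with adjusted p of 0.163 and 0.152 from limma. The call was lost when any of 6 retinas was left out, namely those of HFD, HSD and HFSD (adjusted p up to 0.116, and 0.106 without HSD replicate 2), and when the replicate number was added to the model as a block (0.0584), while the difference itself ran from 0.66 to 0.76 over the 8 such fits.

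The channel subunits had the lowest levels of the set. CNGA3, the A subunit, was at 9.23 and 6.48 FPKM on ND, 5.88 and 4.05 FPKM on HFD, 11.1 and 10.2 FPKM on HSD, and 8.16 and 8.15 FPKM on HFSD. CNGB3, the B subunit, was at 6.42 and 5.43 FPKM on ND, 4.11 and 3.11 FPKM on HFD, 6.72 and 4.76 FPKM on HSD, and 6.23 and 7.75 FPKM on HFSD. For each of them the HFD retinas were below all other retinas, and the sucrose retinas overlapped those of ND. With sucrose the differences were 0.52 for CNGA3 (95% interval 0.19 to 0.86, adjusted p=0.156) and 0.37 for CNGB3 (0.03 to 0.71, adjusted p=0.242), by limma, Benjamini-Hochberg, and 0.41 and 0.29 without HFD replicate 2. CNGB3 differed by 0.79 between HFSD and HFD and by -0.05 between HSD and ND (0.16 without HSD replicate 2), which gives a fat-by-sucrose interaction of 0.85 (adjusted p=0.999, limma). In HSD the sign of CNGB3 depended on the retina left out, and so did the sign of CNGA3 in HFSD.

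ARR3, the arrestin that quenches cone opsins, had the highest mean level of the set and the smallest difference with sucrose. It was at 395 and 361 FPKM on ND, 381 and 293 FPKM on HFD, 450.5 and 476 FPKM on HSD, and 397 and 403 FPKM on HFSD. The groups with and without sucrose did not overlap, but HFSD replicate 1 and ND replicate 1 differed by little. The difference was 0.28 in log2 (standard error 0.109, 95% interval 0.02 to 0.53, adjusted p=0.244 by limma, Benjamini-Hochberg), or 1.21-fold by mean FPKM. Without HFD replicate 2, which held the lowest ARR3 value, it was 0.18.

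By FPKM, which is per length, the levels followed the order ARR3, GNGT2, OPN1SW, GNAT2, PDE6C, CNGA3 and CNGB3, from 394 FPKM down to 5.57 FPKM as means of 8 libraries. ARR3 was above GNGT2 in 6 of 8 libraries, so these 2 were not separated. OPN1SW was above GNAT2 in the 6 retinas of the enriched diets and below it in the 2 ND retinas, where the opsin was level with or under its transducin. Each of the other neighbours kept its order in 8 of 8 libraries. OPN1SW made up 7.36% and 8.11% of the summed FPKM of the 7 genes on ND, 11.2% and 11.7% on HFD, 19.4% and 21.3% on HSD, and 22.7% and 16.6% on HFSD.

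Counts over the 6 cone genes other than the opsin are read beside the same counts over all 12204 tested genes. Between diets with and without sucrose, 1 of the 6 was called (adjusted p under 0.05, limma), against 0.344% of all genes (0.0574% called higher). At an unadjusted p under 0.05, 6 of 6 were higher, against 9.17% of all genes, and in 3 of 6 the groups did not overlap and sucrose was higher, against 6.39%. The estimate was positive for 6 of 6, against 48.7% of all genes. The median difference of the 6 was 0.48, and that of all tested genes was -0.01. These genes share cells and libraries, so their counts are not independent of each other.

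In the comparisons of single diets, 0 of the 6 were called by limma or by voom. In HSD against ND, where 0.0574% of all genes were called, 2 of 6 (GNAT2 and PDE6C) were higher at an unadjusted p under 0.05 (2.7% of all genes), voom gave 2, and 5 of 6 lay above ND without overlap (19.3%). In HFSD against ND (0.0164% called), 1 of 6 (PDE6C) was higher at that limit (3.7%), with 1 by voom, and 4 lay above ND without overlap (21.6%). In HFSD against HFD (0.00819% called), 4 of 6 (GNAT2, PDE6C, CNGA3 and CNGB3) were higher at that limit (7.96%), with 4 by voom, and 5 lay above HFD without overlap (24.9%). Without HFD replicate 2, the differences of the 6 between HFSD and HFD ran from 0.04 (GNGT2, 0.45 with it) and 0.07 (ARR3, 0.26 with it) to 0.67 (PDE6C). HSD and HFSD against ND share the ND retinas.

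On HFD the opsin and the mean of the other cone genes differed from ND in opposite directions, by amounts that rested on the retina. OPN1SW was 0.49 above ND in log2, and the estimates of the other 6 were negative, from -0.02 for GNGT2 (1.02-fold by mean FPKM) to -0.59 for CNGB3. No gene of the 6 was called (0.00819% of all genes were), 2 (CNGA3 and CNGB3) were lower at an unadjusted p under 0.05 in limma (2.51% of all genes) and 2 in voom, and 3 (PDE6C, CNGA3 and CNGB3) lay below ND without overlap (13.3%). Without HFD replicate 2, the differences of the 6 ran from -0.43 (CNGB3) to 0.39 (GNGT2), ARR3 was at 0.01, their mean was -0.11 and 0 of 6 had an unadjusted p under 0.05. Without HFD replicate 1 their mean was -0.54, 6 of 6 were negative and 5 of 6 had an unadjusted p under 0.05. In these fits HFD is a lone retina that is assumed to vary like the other groups. The opsin difference was 0.24 without HFD replicate 1 and 0.73 without HFD replicate 2. With fat against without, over all 4 diets, each of the 6 again had a negative difference, from -0.01 (GNGT2) to -0.46 (CNGA3), none was called by limma or voom (0.00819% of all genes were), and 2 (PDE6C and CNGA3) were lower at an unadjusted p under 0.05 (2% of all genes). Without HFD replicate 2 these differences ran from -0.34 (CNGA3) to 0.20 (GNGT2), with 1 of 6 at an unadjusted p under 0.05. Without HFD replicate 1, 6 of 6 were negative and 4 of 6 were at that limit. OPN1SW differed by 0.15 in that comparison. In the interaction, 0 of 6 were called (0.00819% of all genes), and 1 (CNGB3) was higher at an unadjusted p under 0.05 (1.77% of all genes), as it was by voom.

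Set against the mean of the other 6, short-wavelength opsin was higher in each enriched diet. In log2(FPKM + 1), OPN1SW minus that mean was 0.34 and 0.56 on ND, 1.30 and 1.23 on HFD, 1.93 and 2.16 on HSD, and 2.23 and 1.70 on HFSD. The 4 diets fell in the order ND, HFD and then the sucrose diets, of which HSD and HFSD overlapped. The group means were 0.45±0.159, 1.26±0.0482, 2.05±0.161 and 1.97±0.379 (s.d., n=2). Of the 1.98 by which OPN1SW exceeded ND in HSD, 0.38 was also seen in the mean of the other 6, and 1.60 was left. In HFSD against ND the same values were 1.80, 0.28 and 1.52. In HFSD against HFD they were 1.31, 0.61 and 0.71, since HFD itself lay apart from ND in this measure. The last of these was 0.44 without HFSD replicate 1 and 0.97 without HFSD replicate 2. Per unit of ARR3, the opsin stood at 0.175 and 0.187 on ND, 0.300 and 0.276 on HFD, 0.566 and 0.610 on HSD, and 0.696 and 0.518 on HFSD, as ratios of FPKM. These are descriptions of the values that prompted the choice of the set, with no test.

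**Figure D2:**
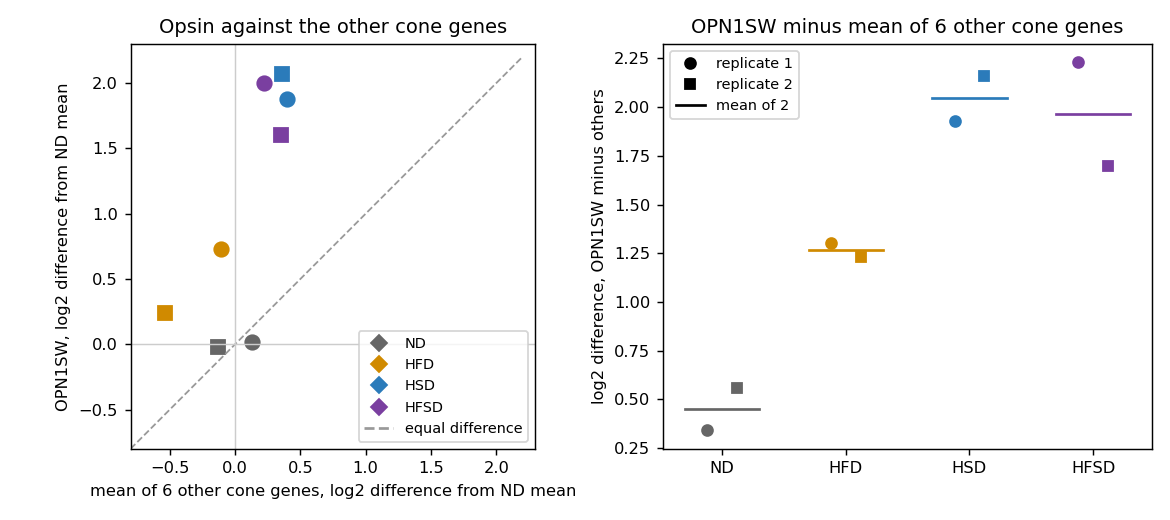
Left: log2 difference from the ND mean of OPN1SW (vertical) against that of the mean of the 6 other cone genes (horizontal), 1 point a retina, circles for replicate 1 and squares for replicate 2, with a dashed line of equal difference. Right: log2(FPKM + 1) of OPN1SW minus the mean of the other 6 in each retina, with lines at the mean of 2. The sucrose retinas stand 1.60 to 2.07 above ND for the opsin and 0.22 to 0.40 for the others, and both HFD retinas lie above the ND retinas for the opsin, while for the others HFD replicate 1 lies within the ND retinas and HFD replicate 2 below them.

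Other genes enriched in cones, from a list that does not hold the 7, had differences with sucrose from -0.33 to 0.61. Of 9 listed, 6 were found and tested (GNB3, GRK7, SLC24A2, KCNV2, RXRG and THRB). None was called in HFD, HSD or HFSD against ND or with sucrose (limma with Benjamini-Hochberg adjustment). With sucrose, 3 were higher and 1 lower at an unadjusted p under 0.05 (9.17% and 9.16% of all genes), and the median was 0.32. GRK7, the kinase that phosphorylates cone opsins, was at 47.5 and 48.3 FPKM on ND, 53.5 and 35.0 FPKM on HFD, 71.4 and 62.2 FPKM on HSD, and 59.3 and 55.1 FPKM on HFSD. All 4 sucrose retinas were above the 4 others, with a difference of 0.43 (adjusted p=0.178), or 0.28 without HFD replicate 2. SLC24A2, a cone exchanger of sodium, calcium and potassium, and THRB, the thyroid hormone receptor that directs cone opsin choice, differed by 0.61 (adjusted p=0.115) and 0.33 (adjusted p=0.145). SLC24A2, GNB3 and RXRG are named after their values were seen. GNB3, the beta subunit of cone transducin, differed by 0.18 (95% interval -0.08 to 0.44, adjusted p=0.420). KCNV2, a potassium channel subunit of photoreceptors, went the other way, from between 144 and 186 FPKM without sucrose to between 118 and 135 FPKM with it (-0.33, adjusted p=0.158). RXRG, a nuclear receptor of cones, differed by 0.31 (adjusted p=0.395).

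Genes that serve cones and rods alike had differences on either side of 0. Of 18 listed, 16 were tested and 0 were called with sucrose (limma with Benjamini-Hochberg adjustment), 1 was higher and 0 lower at an unadjusted p under 0.05 (9.17% and 9.16% of all genes), and the median was -0.07, from -0.42 to 0.27. The gene at 0.27 was GUCY2D, a guanylate cyclase that restores cyclic GMP, which was at 265 to 331 FPKM without sucrose and at 335 to 385 FPKM with it (adjusted p=0.189). It is named after its value was seen. PRPH2, a structural protein of the outer segment discs, was at 4325 to 5745 FPKM without sucrose and at 4183 to 4321 FPKM with it (-0.25, adjusted p=0.473). CACNA1F, the calcium channel of the photoreceptor terminal, differed by 0.13 (adjusted p=0.609).

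Rod genes had differences on either side of 0. Of 13 listed, 6 were found and tested, none was called with sucrose by limma, and 0 had an unadjusted p under 0.05 (9.17% of all genes were higher and 9.16% lower), too few genes to read from. Their median was -0.04, and the differences ran from -0.20 to 0.20. PDE6A, the rod partner of PDE6C, differed by 0.05 (95% interval -0.26 to 0.36, adjusted p=0.853), and CNGA1, the rod partner of CNGA3, by 0.20 (-0.12 to 0.51, adjusted p=0.460), by limma, Benjamini-Hochberg.

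**Figure D3:**
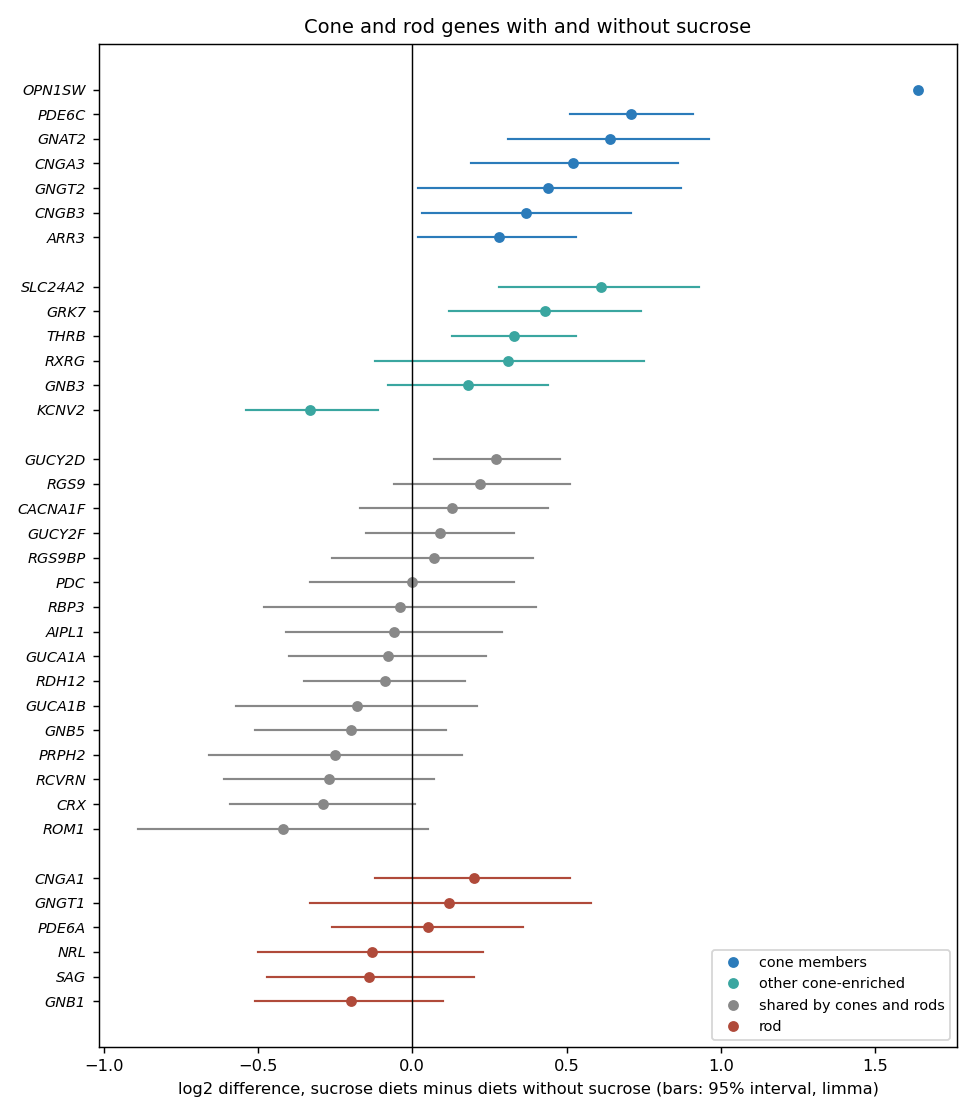
Difference in log2(FPKM + 1) between the sucrose diets (HSD and HFSD) and the diets without sucrose (ND and HFD), for the cone genes, other cone-enriched genes, genes shared by cones and rods, and rod genes; points are estimates and bars 95% intervals from limma, with no interval for OPN1SW, which was chosen by these values. OPN1SW is at 1.64, the other cone genes are between 0.28 and 0.71, and the rod genes lie between -0.20 and 0.20.

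Within cone and rod pairs of the same function, the cone gene took a larger part with sucrose for transducin gamma. GNGT2 made up 4.04% to 5.19% of GNGT2 and GNGT1 without sucrose and 5.51% to 6.48% with it, without overlap. For ARR3 and SAG, the rod arrestin, the ranges were 7.66% to 11.1% and 10.8% to 12.8%. They overlapped by HFSD replicate 1 and ND replicate 1, and those of the phosphodiesterase and channel pairs overlapped as well. PDE6C with PDE6A gave 2.46% to 4.01% and 4.01% to 4.74%, and CNGA3 with CNGA1 gave 0.504% to 1.35% and 0.955% to 1.65%.

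**Figure D4:**
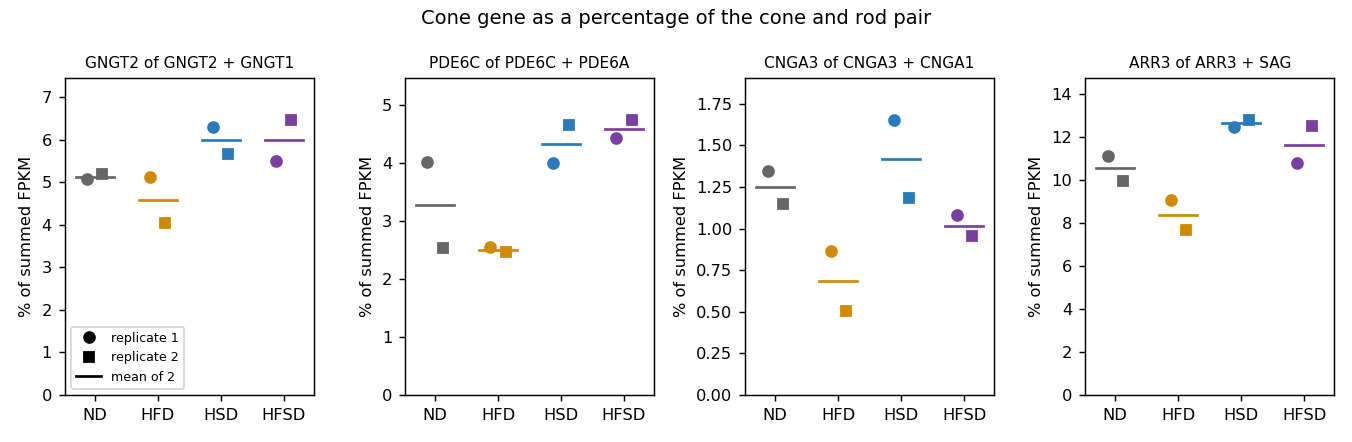
The cone gene as a percentage of the summed FPKM of the cone gene and its rod counterpart, in each retina by diet (circle, replicate 1; square, replicate 2; line, mean of 2), with axes from 0. The GNGT2 share is 4.04% to 5.19% in the retinas without sucrose and 5.51% to 6.48% in those with it, and the shares of the other 3 pairs overlap between these groups.

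Bipolar cells, which receive the signals of cones and rods, were described by a list of 12 genes of cone and rod bipolar cells, all of which were tested. None was called with sucrose (limma with Benjamini-Hochberg adjustment), and 2 were higher and 3 lower at an unadjusted p under 0.05 (9.17% and 9.16% of all genes), with a median of -0.10. SCGN, the calcium-binding protein secretagogin, was at 49.9 and 27.2 FPKM on ND, 46.1 and 27.2 FPKM on HFD, 81.1 and 61.0 FPKM on HSD, and 78.9 and 64.4 FPKM on HFSD (0.95, adjusted p=0.133). GRIK1, a kainate receptor of bipolar cells that respond to light-off, was at 18.9 to 31.4 FPKM without sucrose and at 39.0 to 45.3 FPKM with it (0.77, adjusted p=0.0808). It is named after its value was seen. PCP2, a gene of rod and ON bipolar cells, was at 272 to 518 FPKM without sucrose and at 181 to 320.2 FPKM with it (-0.65, adjusted p=0.213).

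Among the counted genes that mark position in the retina, 1 dorsal gene (EFNB2) was called with sucrose, and no ventral gene was. Of 7 dorsal genes, TBX5 and BMP4 reached 1 FPKM in 2 libraries only among the retinas without sucrose, and are left out of the counts. BMP4 was near that limit throughout, at 0.71 to 1.64 FPKM without sucrose and 0.68 to 0.92 FPKM with it, which overlap. Of the other 5, each was lower with sucrose without overlap (6.37% of the 11626 genes with 1 FPKM in 2 or more libraries of each group), 5 were lower at an unadjusted p under 0.05 (8.87%) and 1 was called lower (0.258%). TBX5, a transcription factor of the dorsal retina, was at 3.27 and 9.85 FPKM on ND, 6.61 and 11.7 FPKM on HFD, 0.018 and 0.032 FPKM on HSD, and 0.085 and 0.560 FPKM on HFSD. The 4 sucrose retinas were all below 1 FPKM and the 4 others all above. EFNB2, the dorsal ligand ephrin-B2, was at 12.3 to 24.2 FPKM without sucrose and at 2.40 to 6.76 FPKM with it. EFNB2 fell by 2.11 (adjusted p=0.0311 by limma, Benjamini-Hochberg). Its call was lost in 5 of 8 fits with a retina left out, by voom (adjusted p=0.0505) and without the filter on low values (0.157). The estimate for TBX5, given as a description, was -2.82, and -5.10 with a pseudocount of 0.1. The summed FPKM of the 7 dorsal genes ran from 93.7 to 175 without sucrose and from 61.3 to 72.0 with it. This sum is a description, since it holds TBX5 and BMP4, which the counts leave out. It also holds ALDH1A1, at 13.8 to 67.5 FPKM without sucrose and 1.16 to 5.52 FPKM with it, named after its values were seen.

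Of 7 genes of the ventral retina, 6 were tested. EPHB3 reached 1 FPKM in 2 libraries only among the retinas without sucrose and is left out of the count. It was the 1 tested ventral gene that was lower with sucrose. As a description, it was at 1.36 to 1.78 FPKM without sucrose and 0.69 to 1.21 FPKM with it (-0.47 in log2). Of the other 5, none was called with sucrose by limma, and 3 were higher at an unadjusted p under 0.05 (9.32% of the genes with 1 FPKM in both groups). VAX1 was listed at 0 in 6 libraries and at no more than 0.219 FPKM in the others. VAX2, a transcription factor of the ventral retina, was at 20.9 and 39.6 FPKM on ND, 32.3 and 37.9 FPKM on HFD, 43.3 and 42.8 FPKM on HSD, and 37.6 and 30.8 FPKM on HFSD (0.26, adjusted p=0.481). ALDH1A3, the ventral enzyme of retinoic acid synthesis, was at 6.76 and 0.19 FPKM on ND, 5.06 and 2.34 FPKM on HFD, 11.9 and 13.9 FPKM on HSD, and 8.76 and 5.61 FPKM on HFSD (1.51, adjusted p=0.213). CYP1B1 differed by 1.11 (adjusted p=0.194). The summed FPKM of the 7 ventral genes, EPHB3 included, ran from 45.3 to 60.6 without sucrose and from 57.3 to 84.4 with it. Whether the position of the tissue sampled has a part in the opsin values was not tested.

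Markers of other cell types gave no calls with sucrose, but some of their levels followed the diets. Of 9 pigment epithelium genes, 8 were tested and none was called with sucrose (limma). LRAT, which was above 1 FPKM in the ND retinas alone, is left out of the count. Of the other 7, 6 were lower at an unadjusted p under 0.05 (8.87% of the genes with 1 FPKM in both groups). The summed FPKM of all 9 genes, LRAT included, was 232 to 543 without sucrose and 117 to 166 with it, with 466 and 543 on ND and 307 and 232 on HFD. Much of this sum was RLBP1, which Müller glia also express and which stood on both lists. Without RLBP1 it was 316 and 238 on ND, 77.8 and 45.4 on HFD and 24.3 to 68.5 with sucrose, so that HFD overlapped the sucrose diets. RPE65, the isomerase that supplies the chromophore, was at 119 and 74.6 FPKM in ND and at 10.1 to 34.8 FPKM in the other 6 retinas, and TTR, transthyretin, at 144 and 88.6 FPKM and at 4.52 to 26.9 FPKM. Of 7 Müller glia genes, 6 were tested, none was called with sucrose by limma, and 3 were lower at an unadjusted p under 0.05 (9.16% of all genes). Their summed FPKM was 2583 to 3761 without sucrose and 1801 to 1943 with it, and that of GLUL, glutamine synthetase, was 1489 to 2127 and 722 to 890 (-1.07, adjusted p=0.0501, called in 5 of 9 other settings that kept the 8 libraries). Without GLUL the sum was 1094 to 1634 without sucrose and 1035 to 1145 with it, which overlap. CRYM differed by -1.36 (adjusted p=0.194), VIM by -0.23 (adjusted p=0.460) and SLC1A3 by -0.01 (adjusted p=0.960), the last 2 named after their values were seen. Of 6 thyroid hormone genes, 5 were tested and none was called. SLCO1C1, a carrier of thyroid hormone, was at 9.02 to 18.3 FPKM without sucrose and at 2.73 to 7.67 FPKM with it (-1.44, adjusted p=0.0803), and DIO3, which inactivates the hormone, differed by -0.09 (adjusted p=0.946). The part of these genes or cells in the cone results was not tested.

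**Figure D5:**
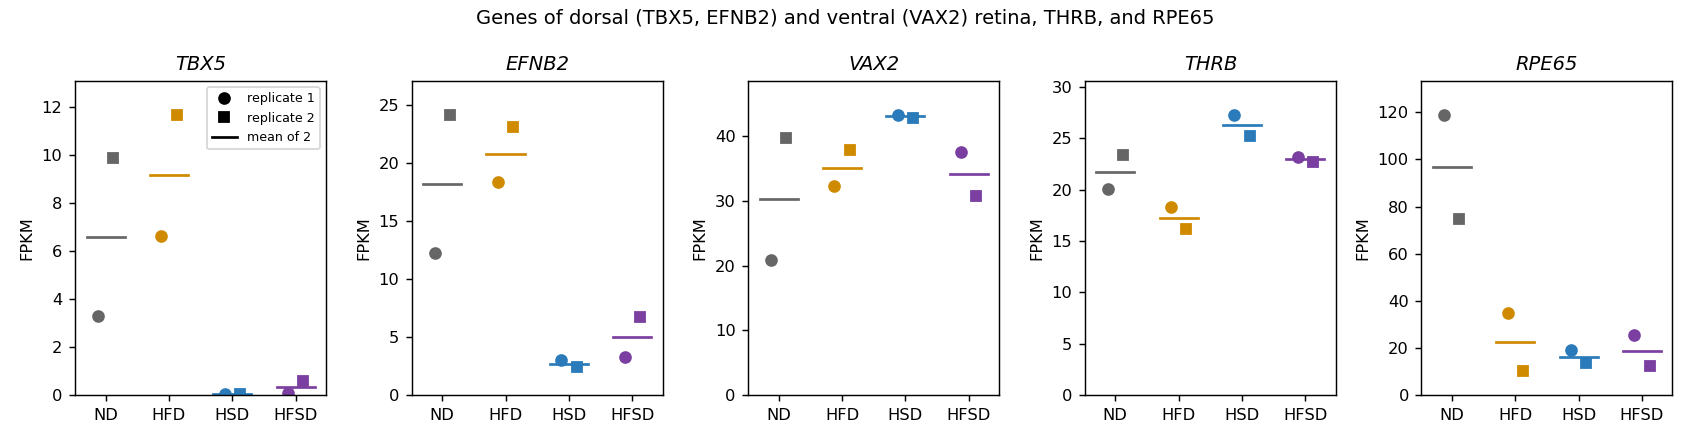
FPKM in each retina by diet of the dorsal genes TBX5 and EFNB2, the ventral gene VAX2, the thyroid hormone receptor THRB and the pigment epithelium gene RPE65 (circle, replicate 1; square, replicate 2; line, mean of 2), with axes from 0. TBX5 is at 3.27 to 11.7 FPKM in the 4 retinas without sucrose and at 0.018 to 0.560 FPKM in the 4 with it, VAX2 overlaps between these groups, and RPE65 is highest in the ND retinas.

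The genes whose pattern over the 8 libraries was closest to OPN1SW were found by the root mean square difference in centred log2(FPKM + 1), for which OPN1SW itself has a spread of 0.859. They were SST (0.401), VSTM2A (0.434), SLC17A8 (0.445), SCGN (0.480) and GALM (0.496). The cone genes of the set were left out of this ranking, so none could be among them. SST encodes the neuropeptide somatostatin, SLC17A8 a vesicular glutamate transporter and GALM an aldose epimerase. SST was at 0.778 and 0.136 FPKM on ND, 0.200 and 0.132 FPKM on HFD, 3.05 and 4.36 FPKM on HSD, and 2.07 and 1.47 FPKM on HFSD. It reached 1 FPKM in the sucrose retinas alone, and the pseudocount of 1 understates its change. The sucrose retinas lay above the others by 1.48 in log2, which the choice of SST by its likeness to the opsin fixed, so no test is given. The mean of the other 6 cone genes, with a spread of 0.303, had closer neighbours: LHX4 (0.062), CHRM3 (0.087), SPEF2 (0.088), SELENOI (0.089) and BTC (0.103). LHX4, a transcription factor, was at 4.17 to 6.92 FPKM without sucrose and at 7.75 to 8.43 FPKM with it.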

How the data were processed

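RNA of 8 retinas was extracted with TRIzol, made into TruSeq libraries and run on an Illumina HiSeq. Reads were checked with FastQC, trimmed and aligned by the authors with TopHat2, and those with several positions were discarded. The deposited values are FPKM per gene and library, computed by the authors with their own script, although the table is named for counts. The genome build and annotation are not given in the sources used here, so genes are named by symbol without coordinates.

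Columns were matched to samples by the labels (0 value columns were left without a sample). Library depths and fragments per gene were recovered from the steps of the FPKM values, to within 0.02 of a whole number for 100% of tested genes. They carry counting error only. Tests used limma (version 3.58.1, R 4.3.3) on log2(FPKM + 1), the prior variance following mean level, in 1 model of 4 diets and 8 libraries. The pseudocount of 1 understates changes of genes with low FPKM. Of 19293 protein-coding genes, 12204 had at least 1 FPKM in at least 2 libraries and were tested. Over these, Benjamini-Hochberg adjusted p values under 0.05 were called. The effect of sucrose is the average of HSD and HFSD minus that of ND and HFD, that of fat is formed likewise, and the interaction is HFSD - HFD - HSD + ND. The limma step and the recovery were tested on simulated data.

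Cone genes, gene lists and comparisons were chosen with earlier results of these data known. Counts over genes at 1 FPKM in both groups were added after seeing the data. From each list, the called genes or otherwise the 2 tested genes with the largest difference in HSD are named, with rod counterparts, TBX5, VAX2 and THRB, and a few others marked in the text as named after their values were seen. Likeness was ranked over the tested genes with a symbol, the cone genes of the set left out, and the first 5 are named. Alternatives were another pseudocount, other filters, scalings, variance models and sample sets, voom on the fragments, a replicate block and each library left out. A rod gene of the lists is not reported here.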

Additional observations from a re-analysis of the deposited data

Results flagged for a closer look

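In 2 of the 78 tested genes of the lists, the retinas of matching diets lay apart in opposite directions, PDE6A for sucrose (as did 3.05% of all 12204 tested genes) and ACTN3 for fat (4.92% of all), so neither stands out by this. PDE6A, the rod phosphodiesterase subunit, was higher in both HSD retinas than in both ND retinas and lower in both HFSD retinas than in both HFD retinas. Its interaction of fat and sucrose came to -0.46 with a standard error of 0.264 (adjusted p=0.999 by limma, Benjamini-Hochberg), so the difference did not pass the test. ACTN3, a muscle gene, was higher in both HFD retinas than in ND and lower in both HFSD retinas than in HSD, with an interaction of -1.73 (adjusted p=0.999, limma). It stood at 11.5 FPKM in HSD replicate 2, the retina with muscle RNA, and at 0.97 to 2.66 FPKM in the others. No cone gene of the set was of this kind.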

How the results depend on the processing

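The direction of the OPN1SW differences was fixed by its choice and is no measure of stability. For the other 6 genes, 405 of 408 values kept their direction in HSD and HFSD against ND, HFSD against HFD, and with sucrose. Many of these values were fixed in advance, so the count overstates stability. Other filters, variance models, the replicate block and leaving out a retina of a diet not compared do not change the difference. HFD against ND and fat were less stable: without HFD replicate 2, GNGT2 and ARR3 turned positive in the first (0.39 and 0.01) and GNGT2 in the second (0.20). With each retina left out in turn, OPN1SW ranged from 0.24 to 0.73 in HFD against ND and from 1.07 to 1.56 in HFSD against HFD, and relative to the other genes from 1.25 to 1.78 in HFSD against ND and from 0.44 to 0.97 in HFSD against HFD. Relative to PDE6C alone the difference in HSD against ND was 1.26, and relative to ARR3 alone that in HFSD against HFD was 1.05; these references were chosen after seeing the data. CNGB3 ranged from -0.26 to 0.16 in HSD against ND, with 0.05 without ND replicate 1, and CNGA3 from -0.16 to 0.29 in HFSD against ND. Cone genes called with sucrose numbered 1 (PDE6C), 0 without the filter on low values, where 19293 genes were adjusted for, and 0 to 1 with each retina left out. The replicate block is treated below. Under the remaining settings the count was 1, also with 2 groups of 4 libraries, a fit added after seeing the data (adjusted p=0.0247).

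Replicate numbers gave no pairing: deviations of same-numbered retinas correlated between -0.16 and 0.08 over 6 pairs of diets. With the replicate block 0 of the 6 were called with sucrose, PDE6C having an adjusted p of 0.0584, and over all genes 25 were called in place of 42. The channel genes rested on 138 to 382 fragments a library, and with 2 retinas a diet the sucrose differences of CNGA3 and CNGB3 did not pass the test.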
